A study of Mus musculus with 6 samples.

Results

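The genes described here are 10 that encode the proteins of elastic fibres and of the microfibrils around them, out of 25220 genes listed in the table of expression values. They were taken by symbol: the fibulin genes Fbln1, Fbln2, Fbln5, Efemp1 and Efemp2, the fibrillin genes Fbn1 and Fbn2, elastin (Eln), and the microfibril-associated glycoprotein genes Mfap2 and Mfap5. The study sequenced polyadenylated RNA of mouse primary myoblasts, the proliferating precursors of muscle fibres, grown from hindlimb muscle in Ham's-F10 with horse serum and bFGF. The 3 control libraries (Ctrl, genotype Pax7+/+; Psat1fl/fl) and the 3 libraries of Psat1 cKO (genotype Pax7 CRE+/-; Psat1fl/fl) all carry floxed alleles of Psat1, the aminotransferase of serine synthesis, and only the second group carries Pax7 CRE, which acts in cells that express Pax7. Effects of CRE itself and of the loss of Psat1 cannot be told apart. The labels give neither age nor induction of Cre, and do not say that replicates came from separate animals. The 10 genes were chosen with results of this comparison known, so their differences between the groups are given as a description, with no p-value.

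An elastic fibre has a core of cross-linked elastin laid on a scaffold of microfibrils, and the microfibrils are polymers of fibrillin. Fibulins are secreted glycoproteins with calcium-binding EGF-like repeats that link elastin, fibrillin and basement membrane proteins. Microfibril-associated glycoproteins sit on fibrillin, lysyl oxidases cross-link elastin and collagen, and latent TGF-beta binding proteins hold growth factors on the fibres. In muscle these proteins lie in the connective tissue between the fibres, where fibroblasts are known as a main source.

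Values are RPKM (read numbers divided by transcript length and by library size), so levels of different genes can be set side by side. From the steps between low values, depth came to between 19.6 and 43.2 M reads (M for 1000000), and Psat1 cKO 3 was the shallowest library. Psat1 itself stood at 91.8, 93.4 and 100.2 RPKM in Ctrl and at 63.5, 74.7 and 71.8 RPKM in Psat1 cKO, so it was lower in each Psat1 cKO library and well above 0 in all. The cultures expressed the defining myoblast genes. The 8 markers examined summed to between 1361 and 1523 RPKM in Ctrl and between 1138 and 1297 RPKM in Psat1 cKO. Most of that sum was Myod1 and Des, with means of 687 and 377 RPKM in Ctrl and 606 and 340 RPKM in Psat1 cKO. Pax7 and Myf5 had means of 26.5 and 12.3 RPKM in Ctrl and 17.4 and 5.30 RPKM in Psat1 cKO. Ctrl 1, Psat1 cKO 1 and Psat1 cKO 2 expressed Xist, and the other 3 libraries expressed Y-linked genes, so the groups were not balanced in sex. In a culture as a whole, a difference in the number of expressing cells and one in the RNA per cell cannot be told apart.

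The levels within Ctrl spanned from well expressed to barely detected. Efemp2 came first with a mean of 35.8 RPKM, above 83.9% of the 12251 genes tested, followed by Fbln2 at 21.8, Fbln1 at 12.2 and Fbn1 at 6.998 RPKM. Efemp1 at 1.32, Mfap5 at 0.875 and Fbln5 at 0.602 RPKM formed a low group, and Mfap2 at 0.168, Fbn2 at 0.0943 and Eln at 0.0757 RPKM were the lowest. Not all neighbours in this order were distinct: the ranges of Efemp2 and Fbln2, of Fbln2 and Fbln1, of Efemp1 and Mfap5, of Mfap5 and Fbln5, and of the 3 lowest genes overlapped, while Fbln1, Fbn1 and Efemp1 were apart from one another and Fbln5 was apart from Mfap2. In Psat1 cKO the order was the same except that Fbln2 led with a mean of 87.7 RPKM, and its lowest library was above the highest of Efemp2.

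**Figure D1:**
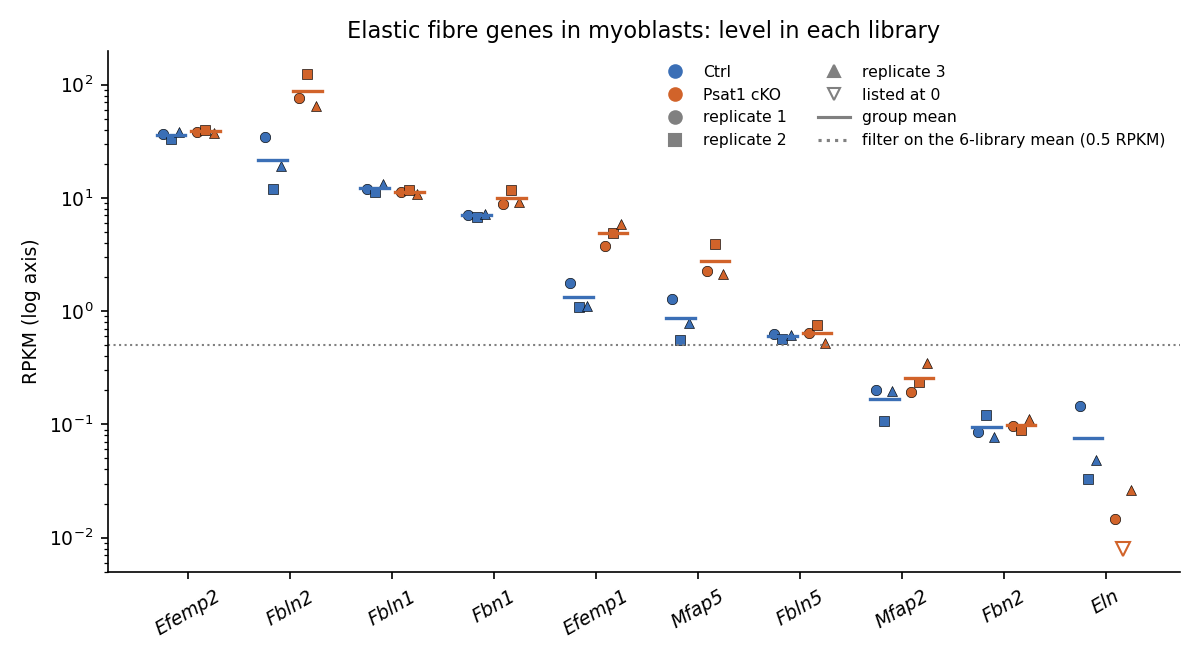
Each point is the RPKM of 1 gene in 1 library on a log axis, with Ctrl in blue and Psat1 cKO in orange, and bars mark the group means (none is drawn for Eln in Psat1 cKO, where 1 library was listed at 0). Fbln2, Efemp1, Mfap5 and Fbn1 have all 3 Psat1 cKO points above all 3 Ctrl points, and Mfap2, Fbn2 and Eln lie under the dotted line at 0.5 RPKM.

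The fit over all genes took those averaging 0.5 RPKM or more across libraries, and 7 of the 10 did. Of these 7, 3 passed the threshold of that fit (limma, Benjamini-Hochberg adjusted p under 0.05), all with higher values in Psat1 cKO, and 0 passed with lower values. Over all genes tested, 1.80% passed with higher and 0.490% with lower values (2.29% in all), and since the genes were chosen on this contrast nothing is read from the difference. Every Psat1 cKO library was above every Ctrl library for 4 of the 10 genes and below for 1, against 10.0% and 10.5% of all genes tested (20.5% in all). The 4 genes above were among the 7, and the 1 below was Eln. Eln was under the filter and so not among the genes tested. The median log2 fold change of the 7 genes was 0.46, that of all genes tested was -0.01. The 3 genes past the threshold were Fbln2, Efemp1 and Mfap5. Their number was 3 without Ctrl 1 and 1, Efemp1, without any one of the other 5 libraries. Under the alternative settings that kept all libraries, Mfap5 passed only with TMM scaling and with array quality weights. Fbln2 missed the threshold with no filter on low values, with the replicate block and with no variance trend. Efemp1 missed it with no filter on low values.

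Among the fibulins, Fbln2 (fibulin-2, a protein that binds fibrillin and basement membrane components; Entrez 14115, GRCm38 chromosome 6, 91212460 to 91272540) differed most. It stood at 34.3, 11.96 and 19.1 RPKM in Ctrl and at 75.6, 122.9 and 64.6 RPKM in Psat1 cKO. The means were 21.8 ± 11.4 and 87.7 ± 30.9 RPKM (SD, n = 3 each). The groups did not overlap, although Ctrl libraries differed among themselves by 2.87-fold, with Ctrl 1 highest and Ctrl 2 lowest. The log2 fold change, taken throughout on RPKM + 0.5, was 2.06 (SE 0.37). It was 1.48 within the libraries that expressed Xist and 2.06 within those that expressed Y-linked genes. Here and below, the Xist side has Ctrl 1 as its only Ctrl library. The Y-linked side has Psat1 cKO 3 as its only Psat1 cKO library.

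Efemp1 (fibulin-3, a protein of elastic tissue and of the matrix under the retina; Entrez 216616, chromosome 11, 28853154 to 28926743) was lower in level but differed with less spread. It stood at 1.78, 1.08 and 1.10 RPKM in Ctrl and at 3.78, 4.92 and 5.85 RPKM in Psat1 cKO. Its highest library was Psat1 cKO 3, which was the lowest of its group for Fbln2. The log2 fold change was 1.56 (SE 0.18), and it was 1.08 within the libraries with Xist and 1.996 within those with Y-linked expression.

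The other 3 fibulins had groups that overlapped. Efemp2 (fibulin-4, which brings lysyl oxidase to tropoelastin; Entrez 58859, chromosome 19, 5473946 to 5482520) stood at 36.4, 32.9 and 38.3 RPKM in Ctrl and at 38.2, 39.8 and 37.7 RPKM in Psat1 cKO, a log2 fold change of 0.11 (SE 0.06). Fbln1 (fibulin-1, a protein of basement membranes and elastic fibres; Entrez 14114, chromosome 15, 85205949 to 85286294) stood at 12.02, 11.3 and 13.1 RPKM against 11.3, 11.7 and 10.8 RPKM, with a log2 fold change of -0.10 (SE 0.07). Among the 6 libraries these genes spanned only 1.21-fold and 1.22-fold from lowest to highest, where Fbln2 spanned 10.3-fold. Fbln5 (fibulin-5, which mice need to build elastic fibres; Entrez 23876, chromosome 12, 101746565 to 101819119) was scarce, at 0.627, 0.569 and 0.609 RPKM against 0.636, 0.752 and 0.524 RPKM, with a log2 fold change of 0.04 and a standard error of 0.12. The sign of that value changed under quantile normalization (-0.02), with the Xist and Y-linked split as a term (-0.003514), within the libraries with Y-linked expression (-0.09) and without Psat1 cKO 2 (-0.03).

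The mixture of fibulin transcripts was therefore different in the groups. Of the RPKM summed over the 5 fibulins, Fbln2 made up 40.3%, 20.7% and 26.5% in the Ctrl libraries and 58.4%, 68.2% and 54.1% in the Psat1 cKO libraries. Efemp2 had the largest share in each Ctrl library (42.7%, 56.9% and 53.0%) and came second in each Psat1 cKO library (29.5%, 22.1% and 31.6%). The sum itself was 71.7 ± 13.6 RPKM in Ctrl and 143 ± 32.4 RPKM in Psat1 cKO (SD, n = 3 each).

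**Figure D2:**
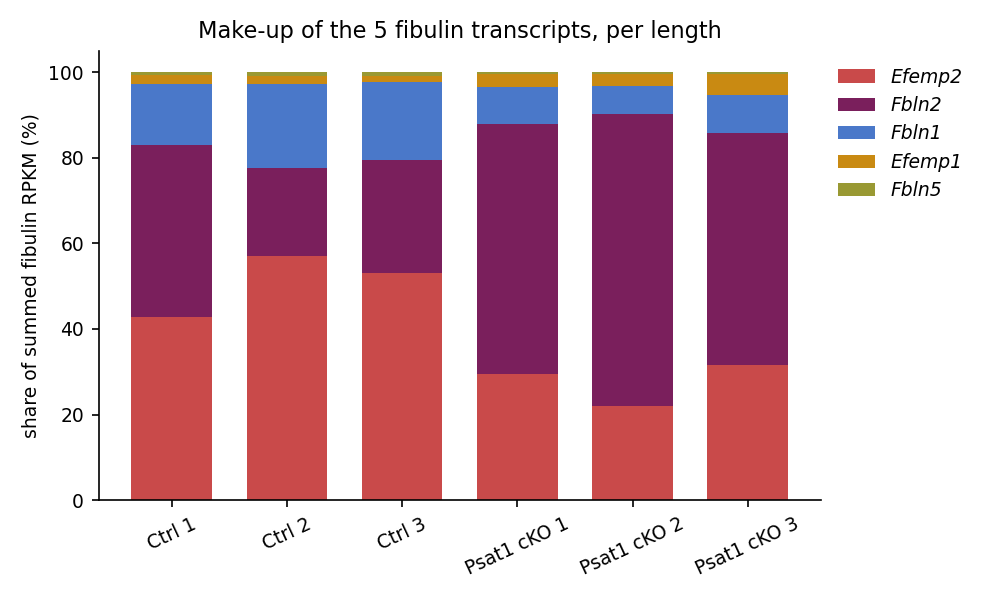
Bars give, for each of the 6 libraries, the share of each fibulin gene in the RPKM summed over the 5 genes, in percent. Fbln2 takes between 20.7% and 40.3% of the bar in Ctrl and between 54.1% and 68.2% in Psat1 cKO.

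The start regions of 2 fibulin genes are shown as examples, 1 of a gene that was higher in Psat1 cKO and 1 of a gene that was not. RefSeq's GRCm38.p6 promoter table held 7 of the 10 genes with 12 start sites. The 250 bases before the start follow for Efemp1 (chr11:28852955-28853204, plus strand) and for the first listed start of Fbln1 (chr15:85205699-85205948, plus strand), 5′ to 3′, with motif matches in capitals. The listed transcript of Efemp1 starts within the gene's span given above.
Efemp1: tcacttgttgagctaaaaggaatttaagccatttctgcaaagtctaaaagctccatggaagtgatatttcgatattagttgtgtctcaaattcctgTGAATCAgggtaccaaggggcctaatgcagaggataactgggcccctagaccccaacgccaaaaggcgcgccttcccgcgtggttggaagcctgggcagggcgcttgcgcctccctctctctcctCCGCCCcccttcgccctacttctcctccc
Fbln1: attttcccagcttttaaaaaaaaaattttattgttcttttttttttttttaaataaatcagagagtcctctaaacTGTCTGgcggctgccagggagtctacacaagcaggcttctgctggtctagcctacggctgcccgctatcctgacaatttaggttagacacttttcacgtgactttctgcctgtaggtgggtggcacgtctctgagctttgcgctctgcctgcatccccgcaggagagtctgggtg
Matches were searched on both strands. The TATA box was searched as TATAAA. The motif of TEAD factors was searched as GGAATG, and that of the factor AP-1 as TGANTCA. This is looser than the AP-1 consensus, which has C or G at the centre. The GC box was searched as GGGCGG and the motif bound by SMAD factors as CAGACA, and the serum response element was searched as the CArG box. None of these matches overlapped another in the windows shown. The Efemp1 window held 1 AP-1 match at position -154 and 1 GC box match at -29, counted from the start site. That AP-1 match has A at the centre and so is outside the consensus. AP-1 matches are in 6.75% and GC boxes in 32.7% of the 32851 windows of this length in the table. The Fbln1 window held 1 SMAD match, which 17.1% of windows hold, and none of the other letters searched. GC boxes were not particular to the gene that was higher. They were also found before the other listed start of Fbln1, each listed start of Efemp2 and the first listed start of Fbln5. The other listed start of Fbln5 had none. A relation of the matches to the differences between the groups was not tested. The window of Fbln2 lay wholly inside exons of GENCODE M21 transcripts that start further upstream, so it is not shown.

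Of the fibrillins, the polymers that form the microfibril, Fbn1 (the gene affected in Marfan syndrome in humans; Entrez 14118, chromosome 2, 125300594 to 125506485) was the main one expressed. It stood at 7.06, 6.72 and 7.21 RPKM in Ctrl and at 8.81, 11.8 and 9.10 RPKM in Psat1 cKO, and the groups did not overlap. The log2 fold change was 0.46 (SE 0.10), and Psat1 cKO 2 was the highest library. Fbn2 (fibrillin-2, known for its role in the fetus, Entrez 14119, chromosome 18, 58008623 to 58210572) was low in RPKM but detected in every library, at 0.0849, 0.121 and 0.0772 RPKM against 0.0972, 0.0889 and 0.112 RPKM. The level of Fbn1 was between 55.7 and 132 times that of Fbn2 in every library.

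Eln, the elastin gene itself (Entrez 13717, chromosome 5, 134702595 to 134747368), had the lowest mean level of the 10. It was listed at 0.146, 0.0329 and 0.0480 RPKM in Ctrl and at 0.0147, 0 and 0.0265 RPKM in Psat1 cKO. With the depth of each library these values matched whole reads within 0.12 of a read: 19, 5 and 8 reads in Ctrl and 2, 0 and 2 reads in Psat1 cKO, for a transcript of about 3857 bases (the longest in GENCODE M21 has 3853). The groups did not overlap, but the 2 reads of Psat1 cKO 3 and the 5 of Ctrl 2 are a small difference at any depth, and 19 of the 32 Ctrl reads came from Ctrl 1. In the authors' deposited table the fold change of Eln is -8.27, the largest in size of the 10 genes, and it was made from log2 of RPKM + 0.001, where a value of 0 weighs heavily. In that authors' deposited table the signed fold changes are 4.25 for Fbln2, 3.71 for Efemp1, 3.23 for Mfap5, 1.54 for Mfap2 and 1.40 for Fbn1.

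The same reading of reads applied to the other scarce genes. Mfap2 (the glycoprotein MAGP-1; Entrez 17150, chromosome 4, 141010424 to 141015976) was listed at 0.201, 0.107 and 0.196 RPKM in Ctrl and at 0.192, 0.234 and 0.347 RPKM in Psat1 cKO, which at the best matching length of 1180 bases are 8, 5 and 10 reads and 8, 8 and 8 reads. Lengths down to 458.5 bases matched within 0.12 of a read too, so the true numbers may be smaller. The higher RPKM of Psat1 cKO 3 thus stands for the same number of reads as in Psat1 cKO 1, from the shallowest library. No listed GENCODE M21 transcript of Mfap2 has that length (the longest has 1073 bases). For a length of 10495 bases, against 11041 in the longest GENCODE M21 transcript, Fbn2 came to 30, 50 and 35 reads in Ctrl and to 36, 27 and 23 reads in Psat1 cKO, or 9.89 and 10.3 reads per 10 M.

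Mfap5 (the glycoprotein MAGP-2, which binds fibrillin; Entrez 50530, chromosome 6, 122513584 to 122529290) was the microfibril-associated glycoprotein gene that averaged 0.5 RPKM or more. It stood at 1.28, 0.556 and 0.785 RPKM in Ctrl and at 2.28, 3.93 and 2.11 RPKM in Psat1 cKO. The groups did not overlap, with a log2 fold change of 1.24 and a standard error of 0.25, and the value was 0.98 within the libraries with Xist and 1.16 within those with Y-linked expression. Mfap5 and Fbln2 had the same order of libraries in both groups: Ctrl 1 over Ctrl 3 over Ctrl 2, and Psat1 cKO 2 over 1 over 3. The ratio of Fbln2 to Mfap5 within a library was 26.7, 21.5 and 24.4 in Ctrl and 33.2, 31.3 and 30.6 in Psat1 cKO. That ratio spanned 1.54-fold over the 6 libraries, where Mfap5 alone spanned 7.06-fold. The ratio of Fbln2 to Efemp1 spanned 2.26-fold, from 11.05 to 24.99, and that of Efemp1 to Mfap5 spanned 2.22-fold.

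**Figure D3:**
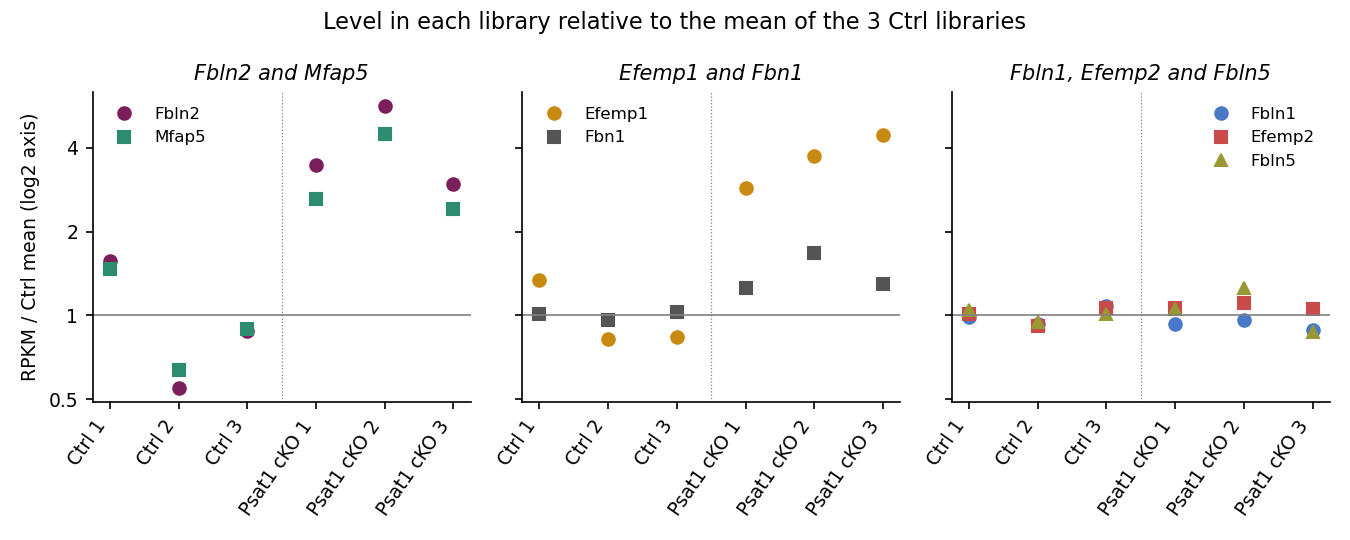
Points give the RPKM of a gene in each library divided by its mean over the 3 Ctrl libraries, on a log2 axis, with a dotted line between Ctrl and Psat1 cKO. Fbln2 and Mfap5 share the order of libraries in both groups, Efemp1 is highest in Psat1 cKO 3, and Fbln1, Efemp2 and Fbln5 stay near 1.

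Genes with the most similar profile were looked for among 9959 named genes averaging 2 RPKM or more, by the root mean square difference of log2(RPKM + 0.5) over the 6 libraries after centring each gene. For Fbln2 these were Inhba, for the activin A subunit (a difference of 0.28), Akap12, for a scaffold protein of kinase A (0.30), and Ptgs2, for the inducible prostaglandin synthase (0.30). For Fbn1 they were Ecm1, for extracellular matrix protein 1 (0.0353), Kctd11 (0.0379) and Jup, for plakoglobin of cell junctions (0.0675). For Mfap5 they were Fgf7, for a fibroblast growth factor (0.11), the basement membrane gene Nid1 (0.16) and Prl2c4 (0.18), a prolactin family gene whose reads may be shared with near-identical copies. Ecm1, the closest to Fbn1, stood at 12.7, 12.3 and 13.9 RPKM in Ctrl and at 16.3, 21.4 and 17.4 RPKM in Psat1 cKO. By the same measure Mfap5 was nearer to Efemp1 (0.34, rank 95 of 12250 other tested genes) than to Fbln2 (0.46, rank 213). By the span of the plain RPKM ratios the order was the other way. The ratio of Fbln2 to Mfap5 spanned 1.54-fold and that of Efemp1 to Mfap5 spanned 2.22-fold. The added 0.5 understates changes of low genes such as Mfap5. The 6 points of each profile come from the same libraries in 2 groups.

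Other genes of the elastic fibre pathway were listed by role: 64 genes in 10 lists, of which 41 were tested. Of the 41, 8 rose and 0 fell in Psat1 cKO (limma, adjusted p under 0.05), beside 1.80% and 0.490% of all genes tested. The lists too were drawn up with results of this contrast known, so nothing is read from that difference. The median log2 fold change of the 41 was 0.24, against -0.01 over all genes, and 34 of them had positive values. The 8 were Lox, Loxl3, Loxl4, Bgn, Itga5, Itgb1, Itgb3 and Ctsk. The number of pathway genes called higher was 5 without Ctrl 1, 3 without Ctrl 2 and 4 without Ctrl 3. It was 7 without Psat1 cKO 1, 1 without Psat1 cKO 2 and 3 without Psat1 cKO 3. These counts can include genes outside the 8. Without Psat1 cKO 1, Emilin2, Mmp9 and Tgfb1 passed, while Lox, Loxl4, Itga5 and Itgb1 did not.

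The lysyl oxidases, the enzymes that cross-link elastin and collagen, had 5 of 5 genes tested, of which 3 rose and all 5 had every Psat1 cKO library above every Ctrl library, as did 10.0% of all genes tested. Lox stood at 5.90, 3.41 and 5.81 RPKM in Ctrl and at 11.4, 21.5 and 11.5 RPKM in Psat1 cKO (log2 fold change 1.44, SE 0.27, limma adjusted p = 0.0417). Loxl3 went from 6.17 ± 0.779 to 11.6 ± 2.04 RPKM (limma adjusted p = 0.0192) and Loxl4 from 0.545 ± 0.197 to 1.501 ± 0.207 RPKM (limma adjusted p = 0.0268), SD with n = 3 each. Loxl1 and Loxl2 did not pass, at log2 fold changes of 0.66 (limma adjusted p = 0.0855) and 1.13 (limma adjusted p = 0.0843). In the 6 fits that each left out 1 library, Loxl3 passed in 2 (missing without Ctrl 2, Ctrl 3, Psat1 cKO 2 or Psat1 cKO 3, limma adjusted p up to 0.0731). Loxl4 passed in 1, that without Ctrl 1 (limma adjusted p up to 0.0999). Lox passed in 0 of the 6, where its limma adjusted p reached 0.123.

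Of the 4 proteoglycans found with elastic fibres, 1 rose: Bgn, for biglycan, was at 23.6, 10.1 and 26.0 RPKM in Ctrl and at 76.4, 150.6 and 92.3 RPKM in Psat1 cKO (log2 fold change 2.44, SE 0.37, limma adjusted p = 0.0185). Bgn missed the threshold without Psat1 cKO 2 (limma adjusted p = 0.0606) and without Psat1 cKO 3. Of 8 receptor genes tested 3 rose, all integrin subunits. Itgb1, for the beta1 subunit shared by many matrix receptors, went from 172 ± 8.80 to 218 ± 9.69 RPKM (limma adjusted p = 0.0327), Itga5, its partner in the fibronectin receptor, from 21.8 ± 2.104 to 38.6 ± 8.43 RPKM (limma adjusted p = 0.0329), and Itgb3, a partner of alpha-v integrin, from 0.716 ± 0.208 to 1.94 ± 0.260 RPKM (limma adjusted p = 0.0170). With 1 library left out, Itgb1 passed in 0 of 6 fits (limma adjusted p up to 0.128), and it missed the threshold under TMM scaling too. Itga5 passed in 2 of 6, those without Psat1 cKO 2 or 3 (limma adjusted p up to 0.129), and Itgb3 in 4 of 6, missing without Psat1 cKO 2 or 3 (up to 0.0677). Of 5 proteases with elastin-degrading members 1 rose: Ctsk, for cathepsin K, was at 0.786, 0.336 and 0.643 RPKM in Ctrl and at 2.07, 2.18 and 2.03 RPKM in Psat1 cKO (log2 fold change 1.28, limma adjusted p = 0.0133, and 0.0517 without Psat1 cKO 2).

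The remaining lists held no gene past the threshold. Among the 4 latent TGF-beta binding proteins, Ltbp2, which binds fibrillin-1, was at 1.14, 0.771 and 1.72 RPKM in Ctrl and at 3.29, 5.47 and 2.67 RPKM in Psat1 cKO (log2 fold change 1.32, limma adjusted p = 0.0516), while Ltbp1, Ltbp3 and Ltbp4 had log2 fold changes of -0.25, -0.09 and -0.24. Among 2 emilins tested, Emilin2 had a log2 fold change of 0.88 (limma adjusted p = 0.134). Of 7 fibrillin-processing and ADAMTS family genes tested, the smallest p was that of Adamts6 (log2 fold change 0.20, limma adjusted p = 0.246). Among 4 growth factors tested it was that of Tgfb1, for the TGF-beta1 ligand (0.38, limma adjusted p = 0.0523), and among 2 other genes named for microfibril association that of Mfap3 (0.03, limma adjusted p = 0.901). The fibulin relatives Fbln7, Hmcn1 and Hmcn2 were all under the filter, with a summed level of at most 0.439 RPKM in any library.

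**Figure D4:**
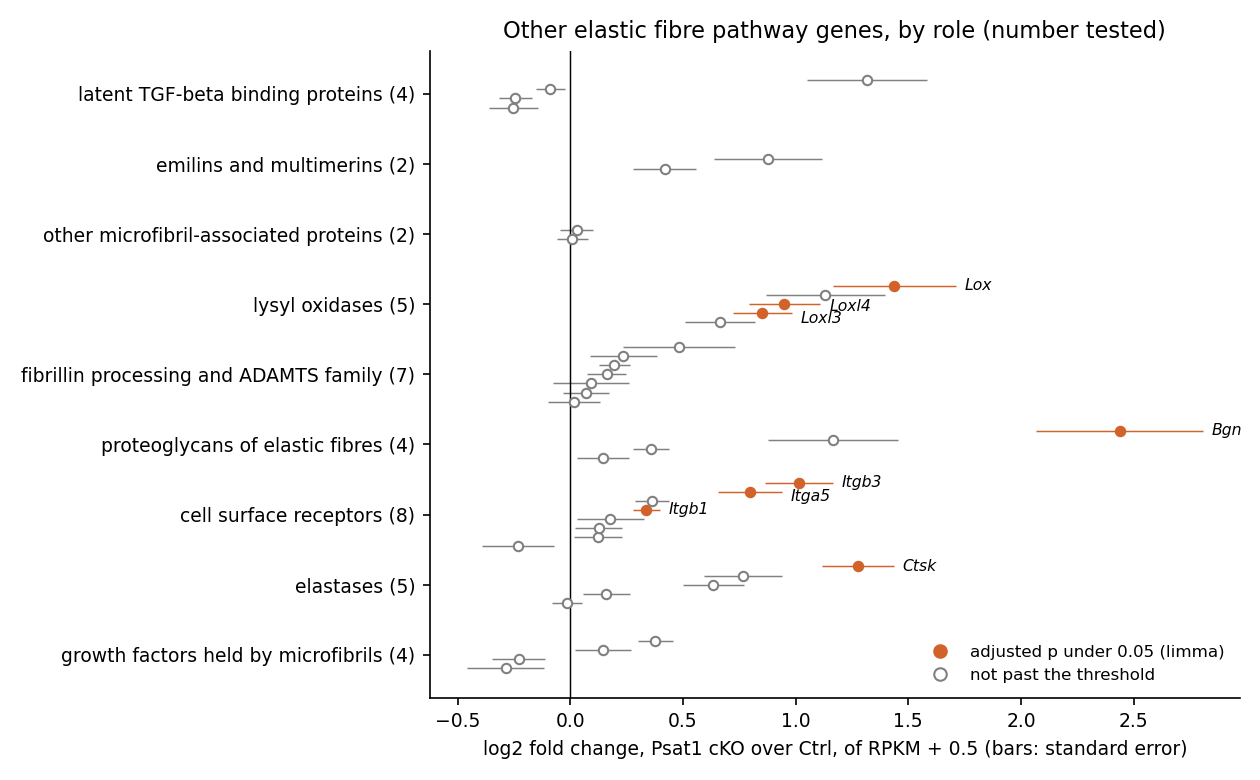
Points give the log2 fold change of RPKM + 0.5 in Psat1 cKO over Ctrl for the 41 tested pathway genes by list, with bars of 1 standard error, and filled points passed adjusted p under 0.05 (limma). The 8 named genes lie to the right of 0, from Itgb1 at 0.34 to Bgn at 2.44, and no filled point lies to the left.

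Among terms for genes higher in Psat1 cKO in the authors' deposited table, elastic fibre formation held 11 listed genes of 39 (log10 p = -12.58), and Fbln2 and Mfap5 were the only 2 of the 10 genes among them. The other 9 were all in the pathway lists above. Efemp1 appeared in that authors' deposited table under receptor signalling terms and not under elastic fibre terms.

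Some markers of stromal cells were higher in Psat1 cKO. The marker counts below stand beside 1.80% higher and 0.490% lower over all genes tested. The marker lists were chosen with results known, so nothing is read from that difference. Of 14 genes listed for fibro-adipogenic progenitors and fibroblasts, the matrix-producing stromal cells of muscle, 6 were tested and 3 rose, with 0 lower. Pdgfra, the receptor that defines these progenitors, went from 0.404 ± 0.0947 to 2.40 ± 0.672 RPKM (SD, n = 3 each, limma adjusted p = 0.00934), and Cd34 and Smoc2 also rose. Pdgfra passed in 6 of the 6 fits with 1 library left out, Cd34 in 5 (missing without Ctrl 2) and Smoc2 in 2 (those without Psat1 cKO 1 or 2). Ly6a, another marker of these progenitors, had a log2 fold change of 0.16 (limma adjusted p = 0.659), and Dcn, for the proteoglycan decorin, 1.16 (limma adjusted p = 0.1004). The summed level of the list was between 37.1 and 46.4 RPKM in Ctrl and between 67.3 and 70.4 RPKM in Psat1 cKO. Within that sum Gsn, which did not pass (log2 fold change 0.35), stood between 26.3 and 34.9 RPKM in Ctrl and between 31.9 and 44.7 RPKM in Psat1 cKO. Of the other markers of that list, Lum was at most 0.123, Dpt at most 0.0299 and Pi16 at most 0.0126 RPKM in any library, and Tcf21 was listed at 0 in all 6. Of 10 smooth muscle and pericyte genes 8 were tested and 2 rose, Mcam and Tagln. The list summed to between 190.5 and 341 RPKM in Ctrl and between 292.6 and 383.9 RPKM in Psat1 cKO. Most of that sum was Acta2, which did not pass (log2 fold change 0.14). Acta2 stood between 148.4 and 272.5 RPKM in Ctrl and between 171.0 and 237.7 RPKM in Psat1 cKO. With 1 library left out, Mcam passed in 5 of 6 fits (missing without Psat1 cKO 2) and Tagln in 2 of 6 (those without Ctrl 1 or 2). Of 3 endothelial, 2 immune and 3 Schwann cell markers tested 0 passed in either direction, and their summed levels were at most 11.6, 23.3 and 6.79 RPKM in any library. Most of the immune sum was Laptm5, at up to 21.5 RPKM in Ctrl 3. The endothelial sum was 11.6 RPKM in Psat1 cKO 3, of which Emcn was 6.68 RPKM, and at most 5.07 RPKM in the other libraries. Efemp1 was also highest in Psat1 cKO 3. The sum was 5.07 RPKM in Ctrl 1, with Efemp1 at 1.78 RPKM, and 3.73 RPKM in Psat1 cKO 1, with Efemp1 at 3.78 RPKM. A relation of the sum to Efemp1 was not tested. The Schwann cell maximum was in Psat1 cKO 3 too. Of the 8 myoblast markers 2 fell: Pax7, the satellite cell factor and the gene at which the groups differ in genotype (log2 fold change -0.60, limma adjusted p = 0.00907), and Myf5, a determination factor (-1.13, limma adjusted p = 0.0138, missing the threshold without Ctrl 2 or without Psat1 cKO 2). The other myoblast markers did not pass, though all 8 had negative log2 fold changes. The part of the Cre allele in the Pax7 level cannot be told apart from that of the cells. The part of stromal cells in the levels of Fbln2, Efemp1, Mfap5 and Fbn1 was not tested.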

How the data were processed

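Libraries were made from 500 ng of Trizol-extracted RNA with NEBNext Ultra II, per the labels. Trim Galore 0.6.6, TopHat2 2.1.1, Partek and mm10 appear in the submitters' processing notes without role or order, and no source used here gives the annotation or counting rule. The authors deposited RPKM values per gene for 6 libraries. The authors' deposited comparison holds means of log2 of RPKM + 0.001, a ratio and a signed fold change (read as a score), and their deposited term tables hold log10 p and q.

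The 10 genes and the pathway and marker lists were chosen with earlier results of these data known. Named genes were the 10, the pathway genes past the threshold or else the smallest p of a list, and the 3 nearest profiles of Fbln2, Fbn1 and Mfap5. Other pathway genes and single markers were named after their values were seen. Genes averaging 0.5 RPKM or more (12251) were fitted with limma 3.58.1 in R 4.3.3 (variance trend, no block) on log2 of RPKM + 0.5, which understates changes of low genes. P-values cover the spread between these samples, which may be technical. The fit was tested on simulated data.

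Depth was estimated from value steps with GENCODE M21 lengths. Between 42.1% and 47.3% of low values of single-exon genes were within 0.05 of a whole read, against 10% by chance, so no count test was run. Read numbers of Eln, Mfap2 and Fbn2 use the transcript length at which all 6 values were nearest to whole, and carry counting error. Positions and start regions are RefSeq's for GRCm38.p6. Tables were handled with Python 3.11.15 and pandas 2.3.3.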

Additional observations from a re-analysis of the deposited data

How the results depend on the processing

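The counts of genes past the threshold depended on the settings, while none of the 10 genes and none of the 41 pathway genes was called lower under any alternative run. Of the 10, 3 were called higher, and this became 0 with no filter on low values (which tested 20767 genes), 1 with the replicate block, 1 with no variance trend, 0 within the libraries with Xist, 1 within those with Y-linked expression and between 1 and 3 with 1 library left out. It was 2 with either pseudocount (0.1 or 1), the filter at 2 RPKM, quantile normalization or the Xist and Y-linked split as a term, 3 with TMM scaling and 4 with array weights. The 8 pathway calls became 0 with no filter, 5 with a filter at 2 RPKM, 5 with no variance trend, 14 with array weights, 4 with the Xist and Y-linked split as a term, 0 within either side of that split and between 1 and 7 with 1 library left out. Over all genes, 220 higher calls became 1 with no filter, 46 within the Xist and 42 within the Y-linked libraries, and between 49 and 173 with 1 library left out. The 60 lower calls became 3 with no filter, 121 with the replicate block, 26 and 14 within the same sides, and between 12 and 55 with 1 library left out. The 4 genes of the 10 with every Psat1 cKO library above became 7 within the Xist libraries. The 1 below, Eln, was not counted under quantile normalization, which covered only genes past the filter. The count below became 2 and 3 within the Xist and Y-linked libraries, and 1 to 2 with 1 library left out. Within each side 1 group has a single library, assumed to vary like the other group, so non-overlap is easier to reach there. Deviations of same-numbered replicates from their group means correlated at r = 0.20, -0.03 and 0.17. Replicates 1 and 3 were alike across the groups in Xist or Y-linked expression, and replicates 2 were not. Differently numbered replicates were not compared, so whether the numbers pair the samples was not settled. Apart from these construction differences, the cause was not tested. Depth limits Eln and Mfap2, which rest on few reads, and limits Fbn2 less, at between 23 and 50 reads in a library.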
